A study of Mus musculus with 8 samples.

Results

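The T cell receptor complex and its proximal kinases were described here as 10 genes, listed by their symbols. They are the CD3 chains *Cd3e*, *Cd3d*, *Cd3g* and *Cd247* (the zeta chain), the co-receptor chains *Cd8a* and *Cd8b1*, the kinases *Lck*, *Fyn* and *Zap70*, and the adaptor *Lat*. All 10 were found among the 55536 genes of the count tables, and all were among the 11189 genes tested, so none was lost to the filter on low counts. The RNA came from OT-1 CD8+ T cells, which bear a transgenic receptor for the ovalbumin peptide SIINFEKL on a Rag-1KO background with congenic CD45 alleles, from lymph nodes of C57BL/6 mice of either sex aged 5 to 12 weeks. All cultures received 100 nM peptide for 2 days and were then expanded for 2 days with 20 ng/ml IL-2. During these last 2 days, 4 cultures received 10 µM GC7, which blocks the enzyme that begins the hypusine modification of eIF5a, and 4 received its acetic acid vehicle (Mock). GC7 is known to act on cells outside eIF5a as well. The cells were sequenced in bulk, so a smaller share of cells with an mRNA and less of it per cell cannot be told apart in any result below.

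As background, the antigen-binding chains of the T cell receptor have almost no cytoplasmic part and signal through the CD3 and zeta chains, whose cytoplasmic tails carry tyrosine motifs. CD8 binds the MHC class I molecule that holds the peptide, and its alpha chain brings the kinase LCK to the receptor. LCK, and to a lesser degree its relative FYN, phosphorylates the tyrosine motifs, ZAP-70 docks on them and phosphorylates LAT, and LAT then gathers the enzymes that open the calcium, Ras and PKC branches of the response.

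Between 17528776 and 25284730 reads were counted per library, and every gene of the set had between 2215 and 24018 counts in each library. CPM are counts per megaread of library, scaled with TMM factors (which correct for RNA composition), and changes are log2 fold changes of GC7 against Mock. Genes were called changed at an FDR (the adjusted p of edgeR's quasi-likelihood test over all genes tested) under 0.01. Markers checked the label of the cells. *Cd8a* and *Cd8b1* were abundant in all 8 libraries, while *Cd4* lay between 0.111 and 0.407 CPM, and the B cell markers *Ms4a1* and *Pax5* had no count in any library. Other B cell markers were present, *Ighm* at 450.1 to 561 CPM in Mock and 262 to 287 CPM with GC7 and *Cd79b* at 3.83 to 9.43 CPM over all libraries.

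At this threshold 46.6% of all genes tested changed. In GC7-treated cells, 2 of the 10 genes rose, *Cd8a* and *Fyn*, against 23.0% of all genes tested. Another 6 fell, *Cd3e*, *Cd3g*, *Cd247*, *Lck*, *Zap70* and *Lat*, against 23.5% of all genes, and *Cd3d* and *Cd8b1* did not pass the test. No change was over 2-fold, which 3.17% of all genes passed upwards and 5.31% downwards. The median log2 fold change was -0.26 over the 10 genes and 0.02 over all genes. In each of the 10 genes the libraries of the groups did not overlap, 8 of them with GC7 below Mock (27.5% of all genes) and 2 with GC7 above Mock (28.1%). The rises of *Cd8a* and *Fyn* and the falls of *Lck*, *Zap70* and *Lat* passed the threshold under every alternative computed, and the number of genes that fell went down to 3 with library totals instead of TMM factors, with replicate numbers as a block, without GC7 replicate 1 or without GC7 replicate 2, since *Cd3e*, *Cd3g* and *Cd247* then had an FDR of 0.01 or more. Of all genes tested, 2058 fell with library totals and 2485 with the block, out of 11189. Without GC7 replicate 1, 2332 of 11267 fell, and without GC7 replicate 2, 2342 of 11278. Scaling by library totals also moved the median of all genes to 0.11. With a threshold of 0.05, for which the share of all genes was not computed, 7 fell. Mock replicate 2 was the highest Mock library for 9 of the 10 genes, all except *Fyn*. Without it 6 genes still fell, beside 2864 of all 11297 genes then tested.

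**Figure D1:**
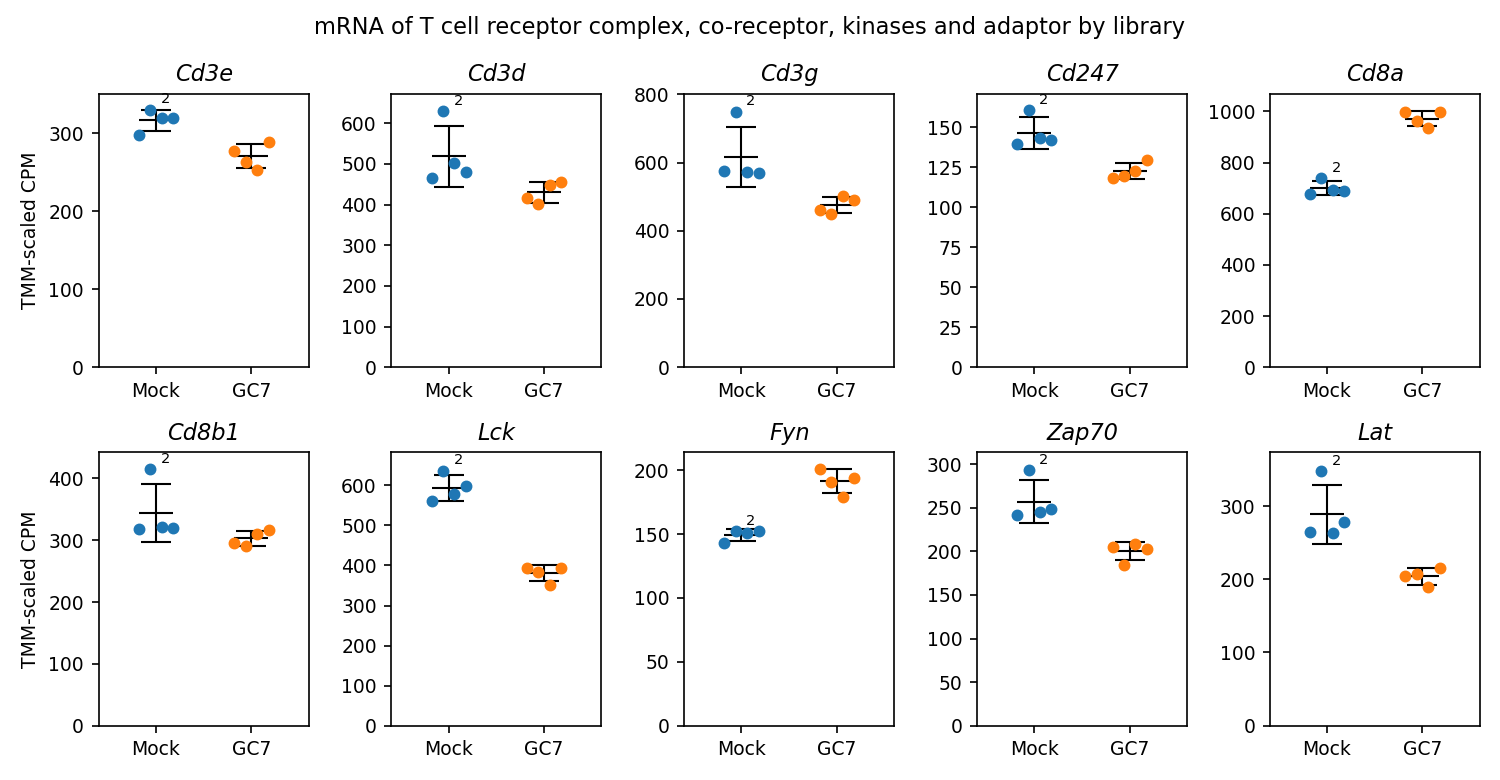
TMM-scaled CPM of each gene in the 4 Mock (blue) and 4 GC7 (orange) libraries, with 1 panel per gene, points for libraries, and bars for the mean and SD. Mock replicate 2 is marked with its number. *Cd8a* rises from 699 to 972 CPM and *Fyn* from 149.6 to 191 CPM, and the other 8 genes are lower in every GC7 library than in every Mock library.

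The CD3 chains are encoded in a cluster on chromosome 9 (GRCm38), with *Cd3g* at chr9:44969572-44980431 and *Cd3e* at chr9:44998740-45009627 on the minus strand, and *Cd3d* at chr9:44981786-44987339 on the plus strand. The start sites of *Cd3d* and *Cd3g* face away from each other and are 1355 bases apart, and *Cd3e* starts 27841 bases from *Cd3d*. CD3 epsilon pairs with delta and with gamma, and so is part of both CD3 dimers of the receptor.

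*Cd3e* mRNA was at 298, 331, 319.9 and 319 CPM in Mock replicates 1 to 4 and at 277, 264, 253 and 289 CPM in GC7 replicates 1 to 4. The highest GC7 library was thus just under the lowest Mock library, and the log2 fold change was -0.23 (SE 0.0630, FDR = 0.00789). This was the smallest of the changes that passed the test, the FDR was 0.0735 with library totals, and it was over the threshold (0.0144 to 0.0269) when Mock replicate 3 or 4 or GC7 replicate 1, 2 or 3 was left out.

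For *Cd3g*, Mock libraries were at 576, 749.7, 572 and 568 CPM and GC7 replicates 1 to 4 at 462, 449, 501 and 492 CPM, with Mock replicate 2 far above the other Mock libraries. The log2 fold change was -0.37 (SE 0.0926, FDR = 0.00412), and -0.26 (FDR = 0.00105) without that library. Leaving out GC7 replicate 1, 2 or 4 brought its FDR to between 0.0103 and 0.0156. *Cd3d* showed the same arrangement, at 465, 630.0, 502 and 481 CPM in Mock and at 417, 401, 449 and 455 CPM in the GC7-treated cells. Its change of -0.27 (95% interval -0.48 to -0.07, FDR = 0.0250) missed the threshold of 0.01, and was -0.16 (FDR = 0.0271) without Mock replicate 2.

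The zeta chain carries more of the tyrosine motifs than any CD3 chain and is encoded apart from them, by *Cd247* at chr1:165788681-165877277. Its mRNA was at 139.5, 161, 143.5 and 142 CPM in Mock and at 118, 119.7, 123 and 129.7 CPM with GC7. No GC7 library reached the lowest Mock library, and the log2 fold change was -0.26 (SE 0.0635, FDR = 0.00417), with an FDR of 0.0170 without GC7 replicate 1 and of 0.0159 without GC7 replicate 2. Of the 5329 exon bases of *Cd247*, 3007 are also exon of *Pou2f1*, a transcription factor gene on the opposite strand. The strand setting of the counting is not given in the sources used here, and reads in the shared bases may have been left out or assigned to either gene. *Pou2f1* itself was at 37.2 CPM in Mock and 43.5 CPM in GC7 libraries (log2 fold change 0.23, FDR = 0.168), and its part in the value of *Cd247* was not tested. *Cd3e* shares 135 exon bases with an antisense gene, *Gm48719*, that had at most 3.01 CPM in any library.

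Within a library, the ratio of counts between CD3 chains does not depend on the scaling. The *Cd3d* to *Cd3e* ratio lay between 1.51 and 1.91 in Mock and between 1.51 and 1.77 with GC7, and the *Cd247* to *Cd3e* ratio between 0.444 and 0.487 in Mock and between 0.428 and 0.485 with GC7. These groups overlapped almost fully, with differences of -0.03 (SE 0.0934) and -0.03 (SE 0.0482) on the log2 scale (two-sided exact permutation tests, p = 0.686 and 0.629, both 0.686 after the adjustment over 7 ratios). The *Cd3g* to *Cd3e* ratio, from 1.78 to 2.27 in Mock and from 1.67 to 1.98 with GC7, differed by -0.14 (SE 0.0994, exact permutation p = 0.2, adjusted 0.28), with overlapping groups, and by -0.06 without Mock replicate 2. A shift in the balance of these chains was not detectable with 4 against 4 libraries.

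The CD8 co-receptor is made of an alpha and a beta chain, and its genes lie on chromosome 6 in the same orientation, *Cd8b1* at chr6:71322788-71337494 and *Cd8a* at chr6:71373427-71379173, with 35932 bases between them. The alpha chain holds the cytoplasmic site that binds LCK, and it can also form a dimer without the beta chain. *Cd8a* mRNA was at 676, 739, 693 and 689 CPM in Mock and rose to 996, 961, 935 and 998 CPM in GC7 libraries. Each GC7 library was above each Mock library, with a log2 fold change of 0.48 (SE 0.0615, FDR = 3.43e-05). *Cd8b1* mRNA was at 319, 415, 321 and 320.2 CPM in Mock and at 296, 289.9, 309.7 and 317 CPM in GC7 libraries. Its change of -0.18 (95% interval -0.37 to 0.01, FDR = 0.0899) did not pass the test, and 3 of the Mock libraries were within a few CPM of the highest GC7 library. Without Mock replicate 2 the change was -0.08 (FDR = 0.180).

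Set against each other within each library, the chains of the co-receptor stood in different ratios in Mock and GC7. The *Cd8b1* to *Cd8a* count ratio was 0.472, 0.562, 0.464 and 0.465 in Mock and 0.297, 0.302, 0.331 and 0.318 with GC7. All GC7 libraries were below all Mock libraries, with a difference of -0.65 on the log2 scale (SE 0.0764, and -0.58 without Mock replicate 2). The two-sided exact permutation test gave p = 0.0286, the smallest value that 4 against 4 libraries allow, and 0.0667 after Benjamini-Hochberg adjustment over the 7 ratios tested. Per kilobase of exon, *Cd8a* made up 45.5% ± 2.3 (SD, n = 4) of the 2 co-receptor mRNAs in Mock and 56.7% ± 1.23 in GC7 libraries.

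The mRNAs of the Src family kinases *Lck* and *Fyn* changed in opposite directions. *Lck* (chr4:129548344-129573641), the main kinase of the tyrosine motifs in T cells, was at 560.2, 637, 577 and 599 CPM in Mock and at 393, 385, 352 and 393 CPM in GC7 libraries. This was the largest change among the 10 genes, a log2 fold change of -0.64 (SE 0.0664, FDR = 5.45e-06) with a wide gap between the groups. *Fyn* (chr10:39368855-39565381) was at 143, 153, 150.5 and 153 CPM in Mock and at 201, 191, 179 and 194 CPM with GC7. Here every GC7 library was the higher, and the log2 fold change was 0.36 (SE 0.0583, FDR = 2.3e-04). The authors list FYN among proteins whose new synthesis was reduced by GC7 while their mRNA was not. These libraries do not measure protein. No transcript of another gene matched *Lck*, *Fyn* or the other genes of the set over 200 bases at 90% identity or more, other than the genes that overlap *Cd247*.

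The *Lck* to *Fyn* count ratio was 3.93, 4.17, 3.84 and 3.92 in Mock and 1.96, 2.01, 1.97 and 2.02 with GC7. The difference was -0.99 on the log2 scale (SE 0.0286), with a spread in either group far smaller than the difference (two-sided exact permutation test, p = 0.0286, and 0.0667 adjusted over the 7 ratios). Per kilobase of exon, *Lck* made up 85.5% ± 0.440 (SD, n = 4) of the 2 kinase mRNAs in Mock and 74.8% ± 0.318 in GC7 libraries, so it was the more abundant of them in both groups.

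**Figure D2:**
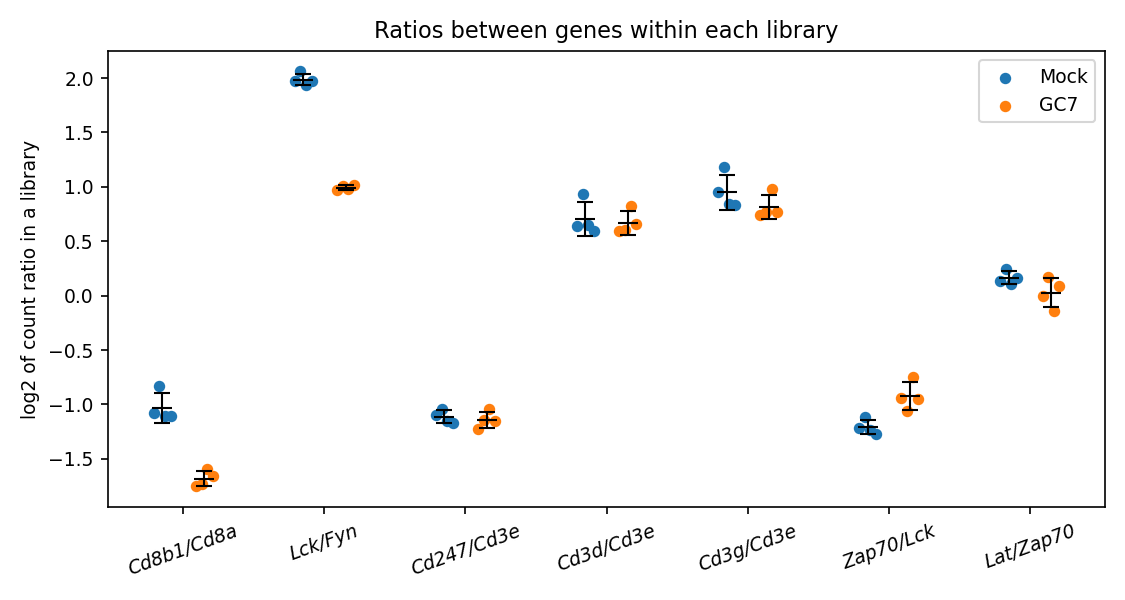
Log2 of the count ratio between pairs of genes within each library, for 4 Mock (blue) and 4 GC7 (orange) libraries, with bars for the mean and SD. *Lck*/*Fyn* falls from a mean of 1.99 to 0.99 and *Cd8b1*/*Cd8a* from -1.03 to -1.68 without overlap, while the ratios between CD3 chains overlap.

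*Zap70* (chr1:36761798-36782818), the kinase that docks on the phosphorylated motifs, was at 241, 294, 245 and 249 CPM in Mock and at 205, 185, 209 and 203 CPM in GC7 libraries. All GC7 libraries were lower, with a log2 fold change of -0.36 (SE 0.0747, FDR = 0.00129, and -0.29 without Mock replicate 2). The *Zap70* to *Lck* ratio was 0.415 to 0.461 in Mock and 0.480 to 0.594 with GC7, without overlap, a log2 difference of 0.28 (SE 0.0719, exact permutation p = 0.0286, adjusted 0.0667). *Lat* (chr7:126363824-126369570), the membrane scaffold that ZAP-70 phosphorylates, was at 265, 348, 263 and 279 CPM in Mock and at 204, 207, 189 and 216 CPM in GC7 libraries. Its log2 fold change was -0.50 (SE 0.0897, FDR = 4.45e-04), and -0.40 without Mock replicate 2, the highest library. The *Lat* to *Zap70* ratio differed by -0.14 on the log2 scale (SE 0.0736, exact permutation p = 0.143, adjusted 0.25) with overlapping groups, and by -0.08 without GC7 replicate 3.

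**Figure D3:**
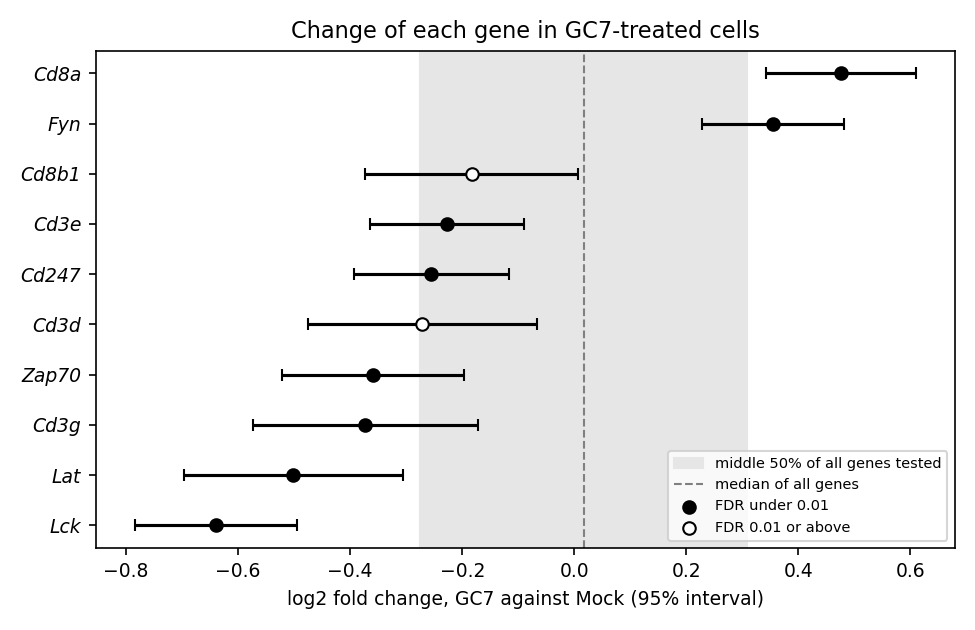
Log2 fold change of each of the 10 genes with its 95% interval, filled where the FDR is under 0.01, beside the median (dashed, 0.02) and the range between the quartiles of all genes tested (grey, from -0.27 to 0.31). *Cd8a* and *Fyn* lie above the grey band, *Lck*, *Lat*, *Cd3g* and *Zap70* below it, and *Cd3e*, *Cd247*, *Cd3d* and *Cd8b1* within it.

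Levels between genes are compared per kilobase of exon (CPM per kb), on which scale all 10 genes were abundant, between the 78.7 and the 98.4 percentile of the genes tested in every library. In Mock libraries *Cd3d* was highest at 286 ± 41.4 CPM per kb (SD, n = 4), then *Cd8b1* at 232 ± 32.1, *Lck* at 203 ± 11.2, *Cd8a* at 192 ± 7.55 and *Cd3g* at 189 ± 27.2. *Cd8a* was above *Cd3g* in 3 of the 4 Mock libraries, so their order was not the same in every library. *Lat* at 104 ± 14.5, *Zap70* at 85.9 ± 8.21 and *Cd3e* at 77.7 ± 3.37 followed, and *Fyn* at 34.3 ± 1.09 and *Cd247* at 27.5 ± 1.83 were lowest. In GC7 libraries *Cd8a* moved to the top, at 267 ± 8.33 CPM per kb, above *Cd3d* at 237 ± 14.1 in 4 of 4 libraries, and *Lck*, at 130.0 ± 6.71, moved below *Cd3g* at 146 ± 7.48. *Zap70* at 67.0 ± 3.60 and *Cd3e* at 66.3 ± 3.81 CPM per kb could no longer be ordered, each being higher in 2 of the 4 libraries.

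These orders depend on the length used. With the longest transcript *Lck*, at 272 CPM per kb in Mock, was above *Cd8b1*, and *Cd247* was at 49.5 CPM per kb and *Fyn* at 42.0 in Mock, and at 41.5 and 53.7 in GC7 libraries. The mean of *Cd3e* was then above that of *Zap70* in both groups, at 124 against 115 CPM per kb in Mock and 106 against 89.3 with GC7. A length of only those exon bases of *Cd247* that no other gene shares was also used, a choice made after seeing the data. All counts of *Cd247* were kept, so any reads in the shared bases were not taken out. On this length *Cd247* was at 69.2 in Mock and 58.0 CPM per kb in GC7 libraries.

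RefSeq promoter windows on GRCm38.p6, from 250 bases before to 50 after each start, were at hand for 9 of the 10 genes, in 12 windows. They were searched on both strands for RUNX (TGTGGT or TGCGGT) and ETS (GGAAGT or GGAAGC) motifs, the sites of factor families that T cells use throughout their development. The windows below are those of the genes that rose, *Cd8a* and *Fyn*, and both windows of *Lck*, which fell most and is known to have a distal and a proximal promoter. Counts per gene do not tell which start was used. Letters in capitals mark RUNX and ETS matches.
Cd8a, chr6:71373177-71373476, plus strand: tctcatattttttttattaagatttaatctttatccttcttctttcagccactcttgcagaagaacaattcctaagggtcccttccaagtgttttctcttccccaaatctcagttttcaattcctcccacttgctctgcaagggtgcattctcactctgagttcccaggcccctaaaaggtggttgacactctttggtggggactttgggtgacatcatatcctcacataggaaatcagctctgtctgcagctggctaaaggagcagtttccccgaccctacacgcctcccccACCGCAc
Fyn, chr10:39369549-39369848, plus strand: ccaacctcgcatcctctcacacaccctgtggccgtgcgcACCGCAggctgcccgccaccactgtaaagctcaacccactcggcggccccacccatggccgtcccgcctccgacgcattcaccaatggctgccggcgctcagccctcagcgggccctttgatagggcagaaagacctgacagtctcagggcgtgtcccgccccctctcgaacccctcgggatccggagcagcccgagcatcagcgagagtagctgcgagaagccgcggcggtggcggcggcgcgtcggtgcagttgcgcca
Lck, outer window, chr4:129573592-129573891, minus strand: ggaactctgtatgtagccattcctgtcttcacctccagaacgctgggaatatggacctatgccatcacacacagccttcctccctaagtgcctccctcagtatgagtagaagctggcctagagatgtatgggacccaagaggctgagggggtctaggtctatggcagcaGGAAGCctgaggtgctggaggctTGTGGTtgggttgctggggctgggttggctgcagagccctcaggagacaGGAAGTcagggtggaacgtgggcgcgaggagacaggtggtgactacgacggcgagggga
Lck, inner window, chr4:129558323-129558622, minus strand: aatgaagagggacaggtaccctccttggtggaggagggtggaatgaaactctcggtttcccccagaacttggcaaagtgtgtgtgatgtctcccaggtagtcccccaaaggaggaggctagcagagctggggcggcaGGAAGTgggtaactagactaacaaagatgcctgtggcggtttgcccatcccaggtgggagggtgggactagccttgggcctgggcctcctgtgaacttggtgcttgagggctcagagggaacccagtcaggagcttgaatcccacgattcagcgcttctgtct
The *Cd8a* and *Fyn* windows each held 1 RUNX and no ETS match, the outer *Lck* window held 1 RUNX and 2 ETS matches, and the inner *Lck* window held 1 ETS match. Over all 12 windows, 5 held a RUNX match (22.4% of 32851 RefSeq windows of the same length) and 8 an ETS match (43.6%). Another 5 motifs were searched. A TCF/LEF match (CTTTGA or CTTTGT) was in 6 of the 12 windows (31.2% of all windows), a GATA-factor motif (AGATAA) in 1 (11.2%), an E-box (CANNTG) in 12 (72.3%), a GC box (GGGCGG) in 3 (35.7%) and a TATA box (TATAAA) in 0 (13.6%). The *Fyn* window stood apart in its base composition, with 31 CG dinucleotides and 69.0% G and C, against 1 to 10 CG dinucleotides in the 11 other windows and a median of 7 over all windows. A match is a description of these letters and does not show that a factor binds there.

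The mRNAs of T-lineage transcription factors changed in both directions, with 3 rises and 4 falls among 12 factors, shares near those of all genes tested (23.0% and 23.5%). Values in parentheses from here on are log2 fold changes. *Runx3*, which maintains the CD8 lineage, fell from 245 ± 17.6 to 125 ± 16.4 CPM (SD, n = 4, log2 fold change -0.97, FDR = 2.99e-06), and *Runx1* (-1.40) and *Gata3* (-0.29), a factor of early T cells and of CD4 T cells, also fell. *Tcf7* (TCF-1, a factor of naive and memory T cells) rose from 18.5 ± 2.10 to 58.6 ± 9.62 CPM (log2 fold change 1.66, FDR = 2.03e-07), as did *Tox* (1.69) and *Tcf12* (0.55).

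Further along the pathway, 68 genes in 4 lists were followed, of which 66 were tested. In these lists 10 genes rose and 27 fell, with a median log2 fold change of -0.12, against 23.0% and 23.5% of all genes tested and a median of 0.02, and no gene changed over 2-fold. The counts of each list below are to be read against the same shares. Without Mock replicate 2, 12 rose and 32 fell, beside 2879 and 2864 of all 11297 genes then tested.

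A list of phosphatases and negative regulators, among them the kinase CSK and the ubiquitin ligases of the CBL family, was followed first. It gave 3 rises and 11 falls among 19 genes tested (median -0.36). *Ptpn6*, which encodes the phosphatase SHP-1, fell from 403 ± 26.5 to 251.5 ± 20.8 CPM (SD, n = 4, log2 fold change -0.68, FDR = 9.24e-06). *Sit1* (-0.96), a transmembrane adaptor that restrains signalling, and *Dok2* (-0.83), a further inhibitory adaptor, also fell. *Cblb* (0.39), a ubiquitin ligase that limits activation, *Dok1* (0.39) and *Sla* (0.25), an adaptor that promotes loss of the receptor, rose. *Ptprc*, which encodes CD45, the phosphatase that activates LCK, was at 1149 ± 86.6 CPM in Mock and 1166 ± 35.3 CPM with GC7 (log2 fold change 0.02, FDR = 0.804). *Csk*, the kinase that opposes CD45 at LCK, was at 275 ± 17.7 CPM in Mock and 194 ± 19.9 CPM with GC7 (log2 fold change -0.50, FDR = 2.01e-04). *Ptprc* and *Csk* were picked out for their action on LCK, after their values were seen.

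Among 17 adaptors and effectors of the LAT signalosome, 2 rose and 9 fell (median -0.31). *Plcg1*, the phospholipase that LAT recruits, fell from 212 ± 7.51 to 116 ± 2.52 CPM (log2 fold change -0.86, FDR = 7.67e-08). *Tec* (-0.81), a kinase that acts on this phospholipase, and *Themis* (-0.64), which acts in receptor signalling in the thymus, also fell. *Tespa1*, which takes part in receptor signalling in thymocytes, rose from 30.5 ± 3.02 to 47.6 ± 4.91 CPM (log2 fold change 0.64, FDR = 7.17e-05).

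In the calcium and NFAT branch 3 genes rose and 3 fell among 15 (median -0.06), shares no higher than those of all genes (23.0% and 23.5%). *Ppp3cc* (-0.64), a catalytic subunit of calcineurin, *Itpr3* (-0.62), a calcium channel of the endoplasmic reticulum, and *Nfatc2* (-0.48) fell. *Rcan1* (0.59), an inhibitor of calcineurin and a target of NFAT, *Stim2* (0.46), a calcium sensor, and *Nfatc1* (0.32) rose. The Ras-ERK and PKC branches had 2 rises and 4 falls among 15 genes (median -0.05). *Map2k1* (-0.87, MEK1), *Mapk3* (-0.71, ERK1) and *Prkcq* (-0.65, PKC theta) fell, while *Map3k7* (0.67, TAK1) rose.

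**Figure D4:**
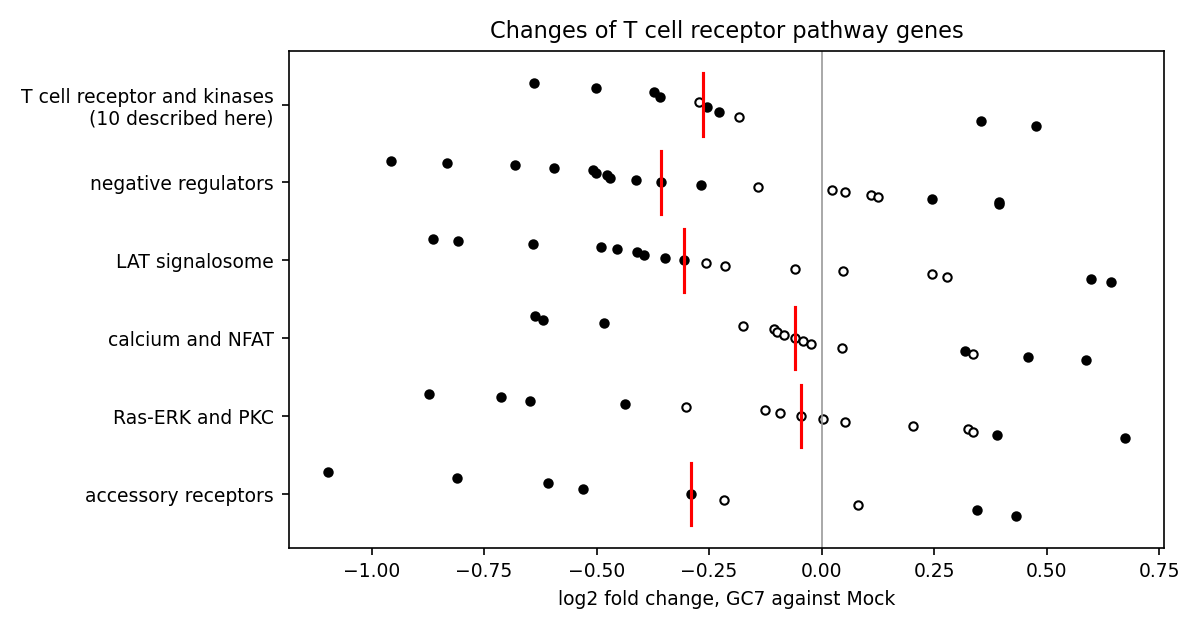
Log2 fold changes of the 10 genes and of the tested genes of 5 related lists, with 1 point per gene, filled where the FDR is under 0.01, and a red bar at the median of each list. The medians of the calcium and NFAT list (-0.06) and of the Ras-ERK and PKC list (-0.05) lie close to 0. Those of the 10 genes (-0.26), negative regulators (-0.36), LAT signalosome (-0.31) and accessory receptors (-0.29) lie lower. The row labelled negative regulators also holds *Ptprc*, the gene of a phosphatase that activates LCK.

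Surface receptors that assist the T cell receptor gave 2 rises and 5 falls among 9 genes tested. *Slamf6* (-1.10) was the one that fell over 2-fold, and *Cd48* (-0.81) and its receptor *Cd2* (-0.61), which hold T cells to their partners, fell too. *Cd5* (0.35) and *Cd6* (0.43), related receptors that dampen signalling, rose. Among the constant segments of the receptor chains, *Trac* was at 243 ± 24.5 CPM in Mock and 187 ± 6.63 CPM with GC7 (log2 fold change -0.38, FDR = 7.34e-04). *Trbc1* (-0.30, FDR = 0.0122) and *Trbc2* (0.21, FDR = 0.0704), which are near-identical so that reads could have been split between them, did not pass the threshold. The gamma segments *Tcrg-C1* (-3.72), *Tcrg-C2* (-2.38) and *Tcrg-C4* (-4.48), which an alpha-beta T cell does not use in its receptor, fell. They passed the filter through Mock alone, at means of 22.1, 7.71 and 6.96 CPM there and 1.66, 1.46 and 0.304 CPM with GC7. *Trac*, *Trbc1* and *Trbc2*, the constant parts of alpha and beta chains, were picked out after their values were seen.

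Markers of other cell types were looked at beside these results. Of 6 B cell markers, *Ighm* (-0.84) and *Cd79b* (-0.76) passed the filter and fell. The summed level of the list was 457 to 571 CPM in Mock and 268 to 293 CPM with GC7, nearly all of it *Ighm*. Of 8 myeloid and dendritic markers, *Cd74* (2.55) alone passed and rose, with the list at 2.33 to 3.06 CPM in Mock and 12.04 to 13.5 CPM with GC7. *Cd74* had at most 2.41 CPM in Mock and passed the filter through the GC7 libraries alone. *Csf1r*, *Cd14* and *Adgre1* had at most 2 counts in a library. Of the CD4 T cell, natural killer cell and stromal markers, *Zbtb7b* (-0.21), *Klrk1* (-0.69) and *Pecam1* (-0.80) were the genes past the filter, and fell. Their lists summed to 93.2 to 97.5, 116 to 142 and 52.1 to 56.8 CPM in Mock and to 76.3 to 85.3, 74.7 to 93.8 and 30.3 to 32.4 CPM with GC7. Nearly all of each sum was the gene named, at 93.6, 133 and 53.2 CPM on average in Mock. The other natural killer cell markers, *Ncr1*, *Klrb1c* and *Klra8*, had at most 0.407, 0.581 and 0.211 CPM in any library. *Col3a1* and *Cdh5* had no count. The part of other cells in the values of the 10 genes was not tested.

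As a description, the protein-coding genes whose log2 CPM followed that of *Lck* most closely over the 8 libraries were *Zdhhc18*, *Impdh1* and *Abcb8* (Pearson's r of 0.998 each, among 10182 genes compared). Their log2 fold changes were -0.33, -0.75 and -0.52. With 8 libraries in 2 groups, such a value mostly reflects the difference between the groups.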

How the data were processed

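RNA of 4 Mock and 4 GC7 libraries was sequenced. The authors cleaned the reads with Cutadapt, used STAR for alignment to GRCm38, and took gene counts from featureCounts. The deposited values are raw counts, 1 table per library, neither normalised nor pooled. Names, positions and exon lengths came from GENCODE M21 (Ensembl 96), which holds all 55536 gene IDs.

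Only genes over 3 CPM in 4 or more libraries were tested, with edgeR (version 4.0.16), TMM factors (0.935 to 1.04) and the quasi-likelihood F test, adjusted by Benjamini-Hochberg over 11189 genes. SE and 95% intervals come from that fit, and ratios of counts were compared by two-sided exact permutation tests. Replicates are stated to be biological. Alternatives were RLE factors, library totals, DESeq2 (version 1.42.0), limma-voom (version 3.58.1), other filters, a replicate block and each library left out.

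Named were all 10 genes of the set, in each list the genes past an FDR of 0.01 and 2-fold or otherwise up to 3 per direction, and 3 genes most like the one that changed most. Any others were picked with their values in view. The set and the lists were chosen with earlier results of these data known. Values of some genes of the lists are not reported here.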

Additional observations from a re-analysis of the deposited data

Results flagged for a closer look

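In 12 of 122 groups of 4 libraries, a single library stood away from the rest, judged by the gap to its neighbour as a share of the group's range (Dixon's test), where chance gives about 1 in 20, or 6.1. Mock replicate 2 accounted for 7 of them. It was the highest Mock library for *Cd3g* (ratio 0.960), *Cd8b1* (0.974), *Zap70* (0.860) and *Sit1* (0.879) and the lowest for *Cblb* (0.851), and it was highest in the log2 ratios of *Cd8b1* to *Cd8a* (0.910) and of *Cd3d* to *Cd3e* (0.832). GC7 replicate 3 was apart in *Ppp3cc* (0.841, highest), *Cd6* (0.888, lowest) and the log2 ratio of *Cd3g* to *Cd3e* (0.883, highest). GC7 replicate 2 was the lowest GC7 library for *Cd2* (0.882) and GC7 replicate 4 for *Zbtb7b* (0.886). Values of different genes in 1 library are related, so these are not 12 separate events.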

How the results depend on the processing

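In all 16 alternatives *Cd8a* and *Fyn* rose and *Lck*, *Zap70* and *Lat* fell, while *Cd8b1* passed the threshold in none. The number of genes that fell, 6, was 3 with library totals, 3 with the replicate block and 3 to 6 as single libraries were left out. Over all 11189 genes tested, 2635 fell in the main fit, 2058 with library totals and 2485 with the replicate block. As single libraries were left out, between 2332 (of 11267 genes, without GC7 replicate 1) and 2864 (of 11297 genes, without Mock replicate 2) fell. Without GC7 replicate 2, 2342 of 11278 genes fell. With library totals, *Cd3e*, *Cd3g* and *Cd247* had log2 fold changes of -0.13, -0.28 and -0.16 and missed the threshold, as they did with the replicate block (-0.23, -0.36 and -0.25). All TMM factors were lower in Mock (0.935 to 0.983) than in GC7 libraries (1.03 to 1.04), so dropping them raised the log2 fold changes. With the block the changes stayed near those of the main fit, and the FDRs were 0.0189, 0.0109 and 0.0109. The cause of the difference in factors was not tested. *Cd3e* also missed it with no filter on low counts (-0.23, FDR = 0.0183 by edgeR), while *Cd3d* passed with no filter (-0.27, FDR = 0.00358 by edgeR) and at an FDR under 0.05 (-0.27). As single libraries were left out, the changes ranged from -0.26 to -0.20 for *Cd3e*, from -0.42 to -0.26 for *Cd3g* and from -0.29 to -0.21 for *Cd247*. The log2 ratio of *Cd247* to *Cd3e* ranged from -0.058 to 0.0024 (the latter without GC7 replicate 1) and that of *Cd3d* to *Cd3e* from -0.086 to 0.041 (the latter without Mock replicate 2), so neither kept its sign. Over all genes, 49.5% of the calls were higher in GC7, and 61.9% with library totals.

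The main fit was planned without pairs. Deviations of same-numbered libraries had r from -0.183 to 0.272 (mean 0.0440, against -0.0200 for other pairs), and 2 of 4 were closest to their own number. With 4 libraries a group this cannot tell whether the numbers are pairs, so the replicate block is given as an alternative. Of the other pathway genes, 12 rose and 26 fell with the replicate block, beside 2382 and 2485 of all 11189 genes tested. With 4 libraries a group, an exact permutation test cannot go below 0.0286, and no ratio passed 0.05 after adjustment. The counts per gene do not separate isoforms, and reads in exons shared by *Cd247* and *Pou2f1* limit the level of *Cd247*.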

Other observations

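Other members of the kinase and adaptor families were scarce. Of 11 such genes, *Lyn*, *Lat2* and *Hcst* passed the filter on low counts. *Lat2*, an adaptor related to *Lat* that is better known from B and myeloid cells, fell from 13.0 ± 0.679 to 2.64 ± 0.474 CPM (SD, n = 4, log2 fold change -2.29, FDR = 3.12e-08), against -0.50 for *Lat*. With GC7 *Lat2* lay at 2.17 to 3.20 CPM, near the 3 CPM of the filter, which it passed through Mock. *Lyn*, a Src family kinase of B and myeloid cells, fell from 4.56 ± 0.326 to 3.17 ± 0.272 CPM (log2 fold change -0.53, FDR = 0.00348), and *Hcst* (log2 fold change -0.34, FDR = 0.0219) did not pass the threshold. *Syk*, the relative of *Zap70*, had at most 1.02 CPM in any library and was not tested. *Fcer1g*, whose protein can stand in for the zeta chain in other cells, was at 3.42, 5.67, 3.01 and 2.59 CPM in Mock and at 0.533, 0.634, 0.666 and 0.914 CPM with GC7, without overlap, and was not tested. *Hcst*, *Syk* and *Fcer1g* were picked out after their values were seen.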
